A study of Mus musculus with 97 samples.

Results

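This account covers the change of the transcriptome between early G1 and G2 in untreated mouse embryonic stem (ES) cells: 3 G2 libraries against 3 early G1 libraries, which are 6 of the 97 samples of the series, with 16011 of 37620 listed genes expressed highly enough to test. The cells are a GFP line called Sox2-Aid in the labels; AID is a degron, by which the plant hormone auxin triggers breakdown of the tagged protein. All groups used here come from that line, so the untreated cells carry the degron too, and a single cell line stands behind every value. Cells were grown on gelatine in serum medium with LIF, stained with the DNA dye Hoechst (20 µM for 20 min) and sorted by Hoechst and GFP into early G1, late G1 and G2. Which protein GFP marks is not given by the labels. The 6 untreated libraries compared received no auxin by their labels. The 3 G2 and 3 early G1 libraries of the same line with 0.5 mM auxin for 3 h were used for the same comparison in separate samples, and the 3 untreated late G1 libraries for levels side by side. The labels do not say whether the 3 libraries of a group came from separate cultures, so the p-values measure the spread between these samples, which may be technical.

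A cell is born into early G1 by mitosis, passes the decision to replicate in late G1, copies its DNA in S phase and prepares to divide in G2. Transcripts for the mitotic machinery accumulate through S and G2 under the DREAM, B-Myb and FoxM1 regulators, and G1/S transcripts follow E2F factors. The regulators of the mitotic genes act through a promoter element called the cell cycle homology region (CHR). The CCAAT box is a separate element of many promoters. Mouse ES cells have a short G1 and keep several cell cycle regulators active through most of the cycle. Immediate early genes such as Fos, Jun and Egr1 encode transcription factors that are induced fast and briefly by growth factors and stress.

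The G2 libraries held 26036310 to 31246791 counts and the early G1 libraries 27052996 to 32765169. One entry, AC157822.1, took 16.64 to 20.53% of the counts of an early G1 library and 17.57 to 18.81% of those of a G2 library. Libraries numbered 3 stood apart from those numbered 1 and 2 among the untreated samples in a principal component analysis (36.09% and 26.84% of the variance on the first pair of axes), and counts without them are given beside the main gene groups. The 8 ES cell markers summed to 3168 to 3445 CPM (counts scaled by library size) in early G1 and 3438 to 3707 in G2. The markers chosen for other cell types had lower sums in both phases. The 10 fibroblast markers summed to 20.34 to 25.83 CPM in early G1 and 19.43 to 23.05 in G2, with Lum at 0 in all 6 libraries. A separate list of fibroblast or feeder cell genes, 8 of them tested, summed higher, to 403.6, 478.1 and 852.6 CPM in early G1. In G2 that list summed to 378.2, 440.2 and 638.5 CPM, with the library numbered 3 highest in each phase. The 6 primitive endoderm genes summed to 5.784 to 9.385 CPM in early G1 and 9.147 to 14.58 in G2. The 5 trophectoderm genes summed to 29 to 37.2 and 20.27 to 26.3 CPM, so that their sum was lower in every G2 library. Most of that sum was the keratin genes Krt8 (15.6 to 21.3 and 10.33 to 13.9 CPM) and Krt18 (7.39 to 10.75 and 5.516 to 7.413). Cdx2, at no more than 0.5232 CPM, and Elf5, at no more than 0.1212, overlapped between the phases. The 4 neural genes in the table summed to 20.48 to 26.03 and 16.27 to 22.68 CPM. Nearly all of it was Nes (19.24 to 25.37 and 15.85 to 22.24 CPM), with Neurog2 at no more than 0.0968 CPM. The 3 Zscan4 genes of the 2-cell-like state summed to 27.76 to 38.75 and 15.93 to 32.66 CPM. The part of these other markers in the results was not tested. In bulk samples, fewer cells of a type and less RNA per cell cannot be told apart.

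Between early G1 and G2, 576 genes changed at an adjusted p under 0.05 in edgeR's quasi-likelihood test, which is 3.6% of the 16011 tested: 304 were higher in G2 (1.9%) and 272 lower (1.7%). The genes that were higher in G2 were led by the mitotic machinery, including Aurkb, Kpna2, Top2a, Prc1, Ube2c and Cdk1, at 3.82 to 6.98 times their early G1 level. The genes that were lower in G2 included immediate early genes such as Egr1 and Fos, and the largest falls named by size lay at or under 11 CPM. Among the genes higher in G2 the median log2 change was 0.52 at a median log2 CPM of 5.38, with 38 beyond 2-fold and 190 under 1.5-fold. Among the genes lower in G2 the median log2 change was -0.67 at a median log2 CPM of 2.81, with 81 beyond 2-fold and 109 under 1.5-fold, and 41 of them averaged under 1 CPM, against 1 of those higher. In all 576, the 3 G2 and the 3 early G1 values did not overlap, and over all tested genes 10.2% were higher without overlap and 11.8% lower. Without an adjustment, 2689 genes (16.8%) had a p under 0.05, and the median log2 change of all tested genes was -0.0036.

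Libraries of the same number deviated together, and a fit with the replicate number as a block called 2360 genes (14.7%), 1247 higher (7.79%) and 1113 lower (6.95%), and all 576 were among them. Omissions of libraries were fitted without the block. Counts then fell to 331, 309 and 258 without early G1 replicate 1, 2 or 3, to 293, 241 and 398 without G2 replicate 1, 2 or 3, and to 226, 146 higher and 80 lower, without all libraries numbered 3. Calls said below to be lost in an omission are those of this unpaired fit. The genes concerned were all called by the block fit of all libraries.

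**Figure D1:**
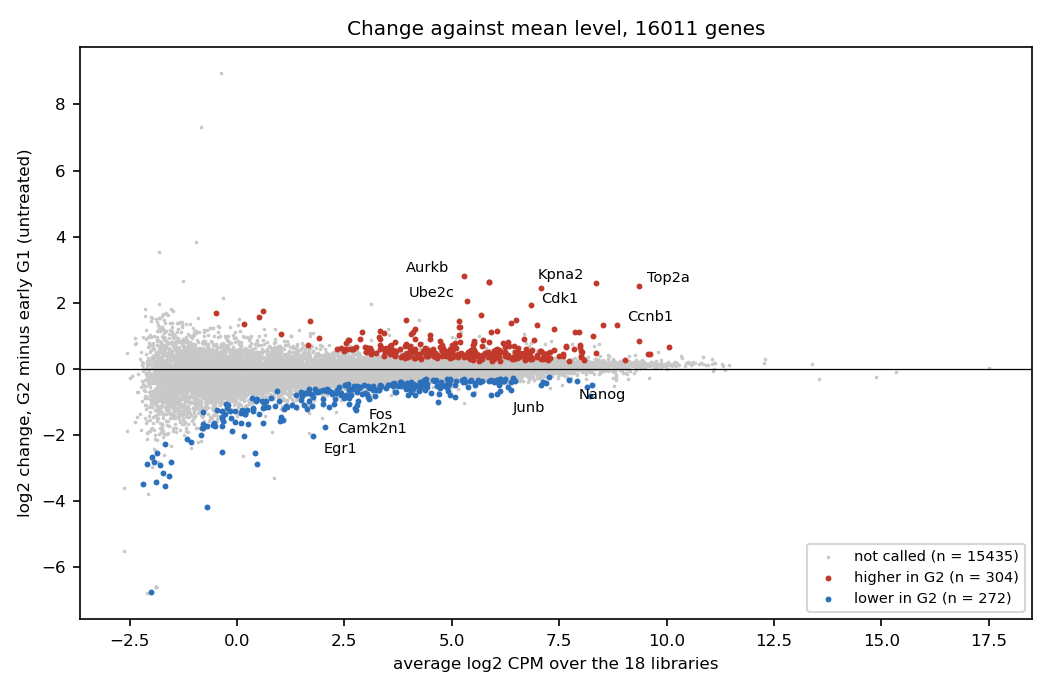
Log2 change from early G1 to G2 without auxin (vertical axis) against the average log2 CPM over the 18 libraries (horizontal axis) for the 16011 tested genes, with the 304 called higher in red, the 272 called lower in blue and the others in grey. The higher genes centre on a log2 CPM of 5.38 and the lower genes on 2.81, and the uncalled points with the largest changes lie at the low end of expression.

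Promoters of the leading G2 genes are shown here because these genes share named cell cycle elements near their start. Sequences are from RefSeq on GRCm38.p6, each 150 bases from 120 before the first base of the gene to 30 from it, read 5′ to 3′ on the strand of the gene. Capitals mark the CHR, searched as TTTGAA or TTCGAA on both strands (TTCAAA on the other strand), and the CCAAT box, searched on both strands (ATTGG on the other strand); none of these overlap in the stretches printed. The windows are chr10:69352883-69353032 (minus strand) for Cdk1, chr11:99024160-99024309 (minus) for Top2a, chr11:106999496-106999645 (minus) for Kpna2, chr7:80294331-80294480 (plus) for Prc1, the first of 2 listed starts, chr2:164769809-164769958 (plus) for Ube2c, chr10:5805436-5805585 (minus) for Fbxo5 and chr13:100786457-100786606 (minus) for Ccnb1.
Cdk1: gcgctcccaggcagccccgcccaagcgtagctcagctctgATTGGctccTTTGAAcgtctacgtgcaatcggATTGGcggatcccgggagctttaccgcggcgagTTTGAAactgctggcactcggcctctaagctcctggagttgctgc
Top2a: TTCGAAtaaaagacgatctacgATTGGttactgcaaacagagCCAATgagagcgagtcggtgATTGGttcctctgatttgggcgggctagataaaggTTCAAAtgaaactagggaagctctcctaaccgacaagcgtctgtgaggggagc
Kpna2: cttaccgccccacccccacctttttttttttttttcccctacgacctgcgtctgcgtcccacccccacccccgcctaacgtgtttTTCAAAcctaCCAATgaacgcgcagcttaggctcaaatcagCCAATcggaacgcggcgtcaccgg
Prc1: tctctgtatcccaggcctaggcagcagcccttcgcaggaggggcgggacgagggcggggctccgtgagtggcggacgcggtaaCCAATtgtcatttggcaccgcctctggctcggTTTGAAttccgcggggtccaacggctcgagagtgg
Ube2c: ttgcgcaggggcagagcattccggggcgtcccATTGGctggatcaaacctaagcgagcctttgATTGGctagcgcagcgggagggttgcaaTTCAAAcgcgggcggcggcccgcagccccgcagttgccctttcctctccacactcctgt
Fbxo5: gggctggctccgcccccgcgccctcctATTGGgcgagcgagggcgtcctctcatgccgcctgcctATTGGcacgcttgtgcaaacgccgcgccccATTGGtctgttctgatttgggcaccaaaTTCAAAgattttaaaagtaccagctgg
Ccnb1: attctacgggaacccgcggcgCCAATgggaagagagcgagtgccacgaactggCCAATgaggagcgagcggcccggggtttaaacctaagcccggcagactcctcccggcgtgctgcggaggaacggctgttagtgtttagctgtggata
Of these 7, Cdk1, Top2a, Kpna2, Prc1, Ube2c and Fbxo5 hold a CHR between base -120 and base 4 of the gene, in Prc1 at base -5, in Cdk1 at bases -71 and -15 and in Kpna2 at base -35. The Ccnb1 window holds 2 CCAAT boxes, at bases -99 and -67, and neither of the 2 CHR spellings searched. Other spellings of the CHR were not searched, so the window is not shown to lack one.

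Over the whole window of 300 bases in the RefSeq table (250 before and 50 from the start, the first listed entry for a gene), 19.4% of 27025 promoters held a CHR by these letters and 37.9% a CCAAT box, and 12.2% held at least 2 CCAAT boxes. Among the genes higher in G2 with an unshared symbol, 245 of 300 (81.7%) matched a promoter; 36.7% of these held a CHR and 53.1% a CCAAT box. Among the mitotic genes described below that were higher in G2, 63 of 75 matched, and 43 of the 63 (68.3%) held a CHR, 46 (73.0%) a CCAAT box and 27 (42.9%) at least 2. A comparison with the genes lower in G2 is void, because only 204 of 270 (75.6%) matched, and so is one with the mitotic genes that were not called (45 of 59 matched), so whether the shares set the called genes apart was not tested. These shares are descriptions of letters in a window.

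Mitotic kinases, cyclins A and B and their regulators rose together in part: 18 of 36 tested were higher in G2 and none lower, with a median log2 change of 0.47 beside -0.0036 for all genes. Aurkb, the kinase of the chromosomal passenger complex, stood at 11.1, 13.2 and 7.65 CPM in the 3 early G1 libraries and at 76.6, 76.8 and 70.1 in the 3 G2 libraries, a log2 change of 2.80 ± 0.16 (SE; adjusted p = 2.74e-09, edgeR). Every G2 library lay far above every early G1 library. Cdk1, the kinase that drives entry into mitosis, read 59, 57.1 and 40.6 CPM in early G1 and 218, 195 and 187 in G2 (1.93 ± 0.15, adjusted p = 1.22e-07). Ube2c, which feeds ubiquitin to the anaphase-promoting complex, read 18.8, 28.4 and 15.1 CPM against 74.8, 98 and 83.9 (2.04 ± 0.26, adjusted p = 0.000246). Its early G1 libraries spread widely, and all lie far below those of G2. Fbxo5, which encodes the inhibitor Emi1 of that complex, read 20.9, 22.5 and 19.2 CPM against 64.2, 67.7 and 60.1 (1.62 ± 0.08, adjusted p = 2.96e-10).

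Cyclins did not move alike. Ccnb1, the cyclin partner of Cdk1, rose 2.51-fold, from 308, 299 and 250 CPM to 750, 714 and 687 (log2 change 1.33 ± 0.10, adjusted p = 1.09e-07). Ccna2, a partner of Cdk1 and Cdk2, rose 1.29-fold, from 248, 248 and 204 CPM to 312, 311 and 280 (0.37 ± 0.09, adjusted p = 0.0272), a call that was lost without early G1 replicate 3 (adjusted p = 0.135), G2 replicate 1 (0.0993) or G2 replicate 2 (0.116). Ccnb2, another B-type cyclin, read 80.2, 78.8 and 76.2 CPM in early G1 and 70.2, 77.6 and 70.4 in G2, overlapping values with a log2 change of -0.11 ± 0.09 (adjusted p = 0.571, and 0.261 with the replicate block).

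Both brakes and accelerators of mitotic entry were among the genes that rose. Wee1, which inhibits Cdk1 by phosphorylation, rose 2.33-fold (adjusted p = 3.4e-05), and Cdc25b, the phosphatase that removes that mark, rose 2.21-fold (adjusted p = 0.000984). Fzr1, the G1 activator of the anaphase-promoting complex, rose 2.41-fold, from 23.7, 27.5 and 26.1 CPM to 63.8, 62.1 and 60.1 (adjusted p = 5.04e-07). The mitotic activator of the same complex, Cdc20, read 332, 342 and 256 CPM in early G1 and 352, 350 and 308 in G2, with overlap (log2 change 0.12 ± 0.14, adjusted p = 0.711). Aurka, the spindle pole kinase, rose from 107, 122 and 85.8 CPM to 192, 208 and 181 (0.88 ± 0.13, adjusted p = 0.000494). Plk1, a kinase active from G2 to cytokinesis, read 77.4, 78.6 and 50.8 CPM in early G1 and 102, 109 and 94.5 in G2; its values did not overlap, with a log2 change of 0.56 ± 0.20 that missed the threshold (adjusted p = 0.138) and passed it with the replicate block (adjusted p = 0.000145). Foxm1, the transcription factor of the G2/M programme, was at 15.9, 21.1 and 17.6 CPM against 23.7, 27.3 and 35, again without overlap, at an adjusted p of 0.0706 and of 0.00088 with the block. Nek2 and Cks2 were called at log2 changes of 0.52 and 0.49, and both calls were lost without early G1 replicate 3, G2 replicate 1 or G2 replicate 2 (highest adjusted p 0.106 for Nek2 and 0.104 for Cks2, without G2 replicate 2). The group's count was 14 to 18 with any 1 library left out and 16 without the libraries numbered 3.

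**Figure D2:**
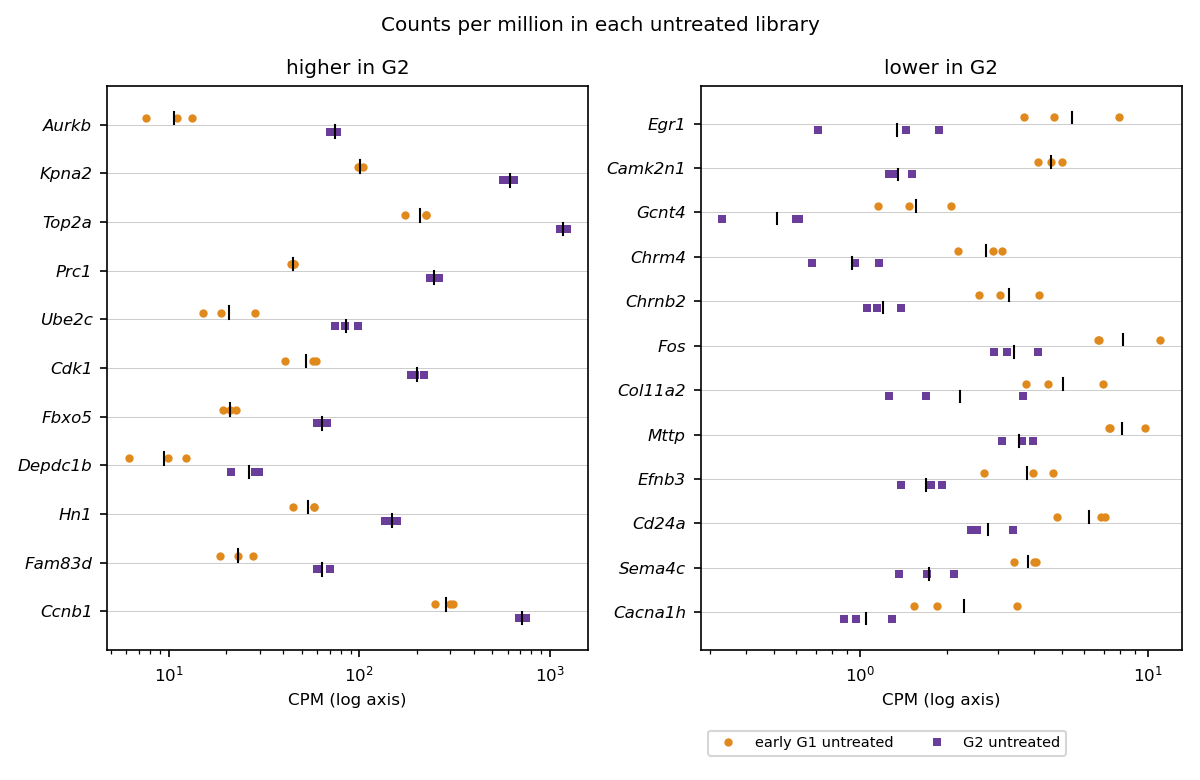
CPM in each untreated library (log axis) of named genes with the largest rise and the largest fall from early G1 (circles) to G2 (squares); short bars are means of 3. No gene has overlapping groups, and the genes of the right panel lie at or under 11 CPM, where those of the left reach 1224.

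Spindle, kinesin and cytokinesis genes had the highest share of calls of the mitotic lists, with 27 of 43 higher in G2, none lower, a median log2 change of 0.46 and all 43 fitted changes above 0. Kpna2, an importin alpha that binds spindle assembly factors, rose 6.07-fold, from 105, 99 and 100 CPM to 651, 626 and 567 (2.60 ± 0.12, adjusted p = 1.04e-10). Prc1, which bundles the microtubules of the central spindle, rose 5.5-fold, from 45.3, 44 and 45.7 CPM to 244, 236 and 263 (2.46 ± 0.11, adjusted p = 1.04e-10). The early G1 values of both genes lie close to one another. Kif11, the kinesin that pushes spindle poles apart, rose from 180, 180 and 133 CPM to 385, 359 and 322, and Nusap1, a microtubule-bundling protein, from 50, 57.3 and 39.1 to 108, 111 and 98.5, with log2 changes of 1.11 ± 0.12 and 1.12 ± 0.13. Depdc1b, also of the list, rose 2.79-fold, and outside the list Fam83d, which places the kinesin Kid on the spindle, rose 2.75-fold.

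Smaller rises were seen for abundant spindle genes. Aspm, a spindle pole protein, rose 1.59-fold (from 248, 268 and 235 CPM to 381, 407 and 405). The tubulin gene Tuba1c rose 1.66-fold. Another tubulin gene, Tubb4b, rose 1.35-fold, a call lost without early G1 replicate 3 (adjusted p = 0.0602) or G2 replicate 1 (0.0543). Kif23, a cytokinesis kinesin, rose 1.36-fold at an adjusted p of 0.0409, which was lost with any library left out but early G1 replicate 2 (up to 0.19, without early G1 replicate 3). Tpx2, the activator of Aurora A on microtubules, read 247, 272 and 214 CPM against 296, 322 and 301 and was not called (adjusted p = 0.162, and 0.00289 with the block). Hmmr, a spindle-associated protein, had overlapping values (229, 198 and 177 CPM against 259, 232 and 227; adjusted p = 0.287, and 0.0159 with the block). The count of the list was 18 to 25 with 1 library left out (18 without early G1 replicate 3), 16 without the libraries numbered 3, and 39 with the block.

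Centromere and kinetochore genes were higher in G2 in 18 of 34 cases, with a median log2 change of 0.48 and none lower. Cenpf, a large kinetochore protein, rose from 256, 294 and 233 CPM to 626, 655 and 675 (1.32 ± 0.13, adjusted p = 6.65e-06). Bub3, of the spindle checkpoint, rose from 84.9, 80.3 and 66.2 to 203, 198 and 177 (1.32 ± 0.10, adjusted p = 8.49e-08). Incenp, the scaffold of the Aurora B complex, rose 2.19-fold, Cdca2, which brings a phosphatase to chromatin, 2.42-fold, and Sgol1, the protector of centromeric cohesion, 2.04-fold. Hjurp, the chaperone of the centromeric histone CENP-A, rose 1.54-fold. The gene of the histone itself, Cenpa, read 78.7, 78.6 and 65.7 CPM in early G1 and 91.6, 92.8 and 85 in G2, without overlap, and was not called (0.27 ± 0.09, adjusted p = 0.132, and 0.0101 with the block). Birc5, another subunit of the Aurora B complex, read 69.3, 68.9 and 45.4 CPM against 93.5, 90.8 and 79.7, also uncalled (adjusted p = 0.0826, and 5.21e-06 with the block). Cenpe, a kinetochore kinesin, rose 1.52-fold, which was lost without early G1 replicate 3 (adjusted p = 0.0597) or G2 replicate 2 (0.061). The list's count was 12 to 16 with 1 library left out (12 without G2 replicate 2) and 14 without the libraries numbered 3.

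Genes of chromosome condensation and cohesion were higher in 12 of 22 cases and lower in none (median log2 change 0.32). Top2a, which untangles sister chromatids, stood at 223, 225 and 174 CPM in early G1 and at 1224, 1180 and 1130 in G2, a 5.67-fold rise (2.50 ± 0.12, adjusted p = 1.04e-10). Smc4, a core subunit of both condensins, rose 2.32-fold, from 112, 123 and 93.4 CPM to 268, 269 and 223. Its partner Smc2 rose 1.4-fold, a call lost without early G1 replicate 3 (adjusted p = 0.0605). Ncaph, of condensin I, rose 1.78-fold. Mki67, which coats mitotic chromosomes and is used as a marker of cycling cells, rose 1.44-fold (from 231, 268 and 249 CPM to 322, 367 and 389; adjusted p = 0.0432), and this call was lost when any 1 of the 6 libraries was left out (0.0526 to 0.145). This list depended most on single libraries among the mitotic lists: 4 to 10 of its members were called with 1 left out (4 without early G1 replicate 3, 6 without G2 replicate 2, 7 without early G1 replicate 2 or G2 replicate 1), and 5 without the libraries numbered 3. Taken as 1 set with each gene once, the 4 mitotic lists held 134 tested genes, of which 75 (55.97%) were higher in G2, 0 lower and 59 not called, 129 with a fitted change above 0. With auxin, in other libraries, 80 of the 134 were higher.

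**Figure D3:**
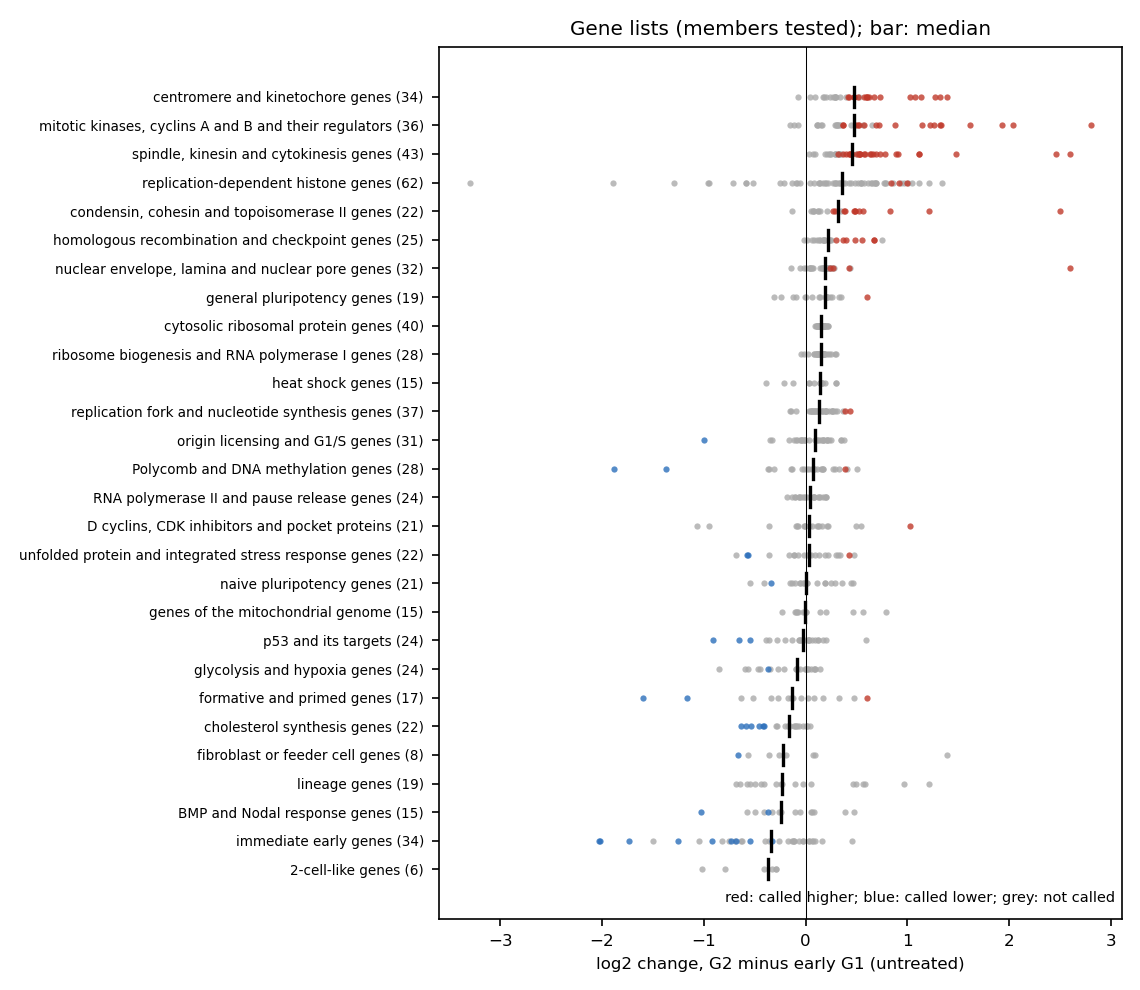
Log2 change from early G1 to G2 without auxin (horizontal axis) of every tested member of the 28 gene lists, with the number tested in brackets; a black bar is the list's median, red and blue points are called genes. The centromere, mitotic kinase and spindle lists have medians of 0.46 to 0.48, and the immediate early list one of -0.34.

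The nuclear envelope and pore list held 4 calls among 32 genes, all higher: the pore genes Nup35 (0.43), Nup153 (0.27) and Nup155 (0.24, log2 changes), and Kpna2, which is in the spindle list too. The list had a median log2 change of 0.19; with the block 15 were called, and 1 or 2 with any library left out. Arl6ip1, which shapes the endoplasmic reticulum, is no member of a list and rose 2.19-fold, from 215, 192 and 151 CPM to 438, 394 and 388; it was named after its values were seen. Hn1, also in no list, rose 2.77-fold, from 58.1, 57.9 and 44.8 CPM to 159, 151 and 136.

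Few genes of S phase passed the test between early G1 and G2. Of 31 origin licensing and G1/S genes, 0 were higher and 1 lower (5 and 3 with the block), with a median log2 change of 0.09. The 1 was Ccne2, a cyclin that drives entry into S phase, which fell from 25.7, 27.1 and 22.3 CPM to 12.6, 13 and 12 (-0.996 ± 0.099, adjusted p = 6e-06), with late G1 at 39.4, 38.8 and 40.4. Its relative Ccne1 read 89.6, 98.2 and 69.2 CPM in early G1 and 86.8, 89.9 and 65 in G2, overlapping (adjusted p = 0.791), with late G1 at 177, 185 and 140. Mcm5, of the replicative helicase, read 467, 464 and 381 CPM against 540, 514 and 461 (log2 change 0.21 ± 0.09, adjusted p = 0.253, and 0.023 with the block). Over all tested genes, 1.9% were higher and 1.7% lower, 7.79% and 6.95% with the block, and 10.2% were higher without overlap. Of 37 replication fork and nucleotide synthesis genes, 34 had a fitted change above 0, and 10 were higher without overlap. In the test 2 were higher (14 with the block). The 2 were Asf1b, a histone chaperone (0.44 ± 0.10, adjusted p = 0.0229), and Dnmt1, which copies DNA methylation to the new strand (0.39 ± 0.10, adjusted p = 0.0434). The Asf1b call was lost without early G1 replicate 3, G2 replicate 1 or G2 replicate 2 (up to 0.118), and the Dnmt1 call in every omission but that of early G1 replicate 2 (up to 0.196, without early G1 replicate 3). Pcna, the sliding clamp of the polymerases, read 341, 374 and 308 CPM in early G1 and 364, 369 and 336 in G2, with overlap (adjusted p = 0.78).

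Replication-dependent histone genes had a median log2 change of 0.36 and 3 calls among 62, all higher: Hist1h4a (373, 355 and 283 CPM to 608, 672 and 535; 0.84 ± 0.13, adjusted p = 0.00118), Hist1h4d (121, 134 and 97.1 to 175, 310 and 220; adjusted p = 0.0288) and Hist2h2bb (adjusted p = 0.0363). The calls of Hist1h4d and Hist2h2bb were each lost in every omission of a library but that of G2 replicate 1 (up to 0.141 and 0.168), and 13 were higher and 3 lower with the block. These genes are near-identical copies, so reads may be split among them by the counting. Their transcripts have no poly(A) tail, and the libraries were made from RNA depleted of ribosomal RNA, per the labels. Slbp, whose protein binds the stem-loop of histone mRNAs, read 124, 119 and 111 CPM in early G1 and 99.5, 89 and 90.2 in G2, lower without overlap, at an adjusted p of 0.077 and of 0.00169 with the block.

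Homologous recombination and checkpoint genes were higher in 7 of 25 cases and lower in none (median log2 change 0.22; 13 higher with the block, 2 without the libraries numbered 3, and 4 without early G1 replicate 3, G2 replicate 1 or G2 replicate 2). Topbp1, an activator of the ATR checkpoint kinase, rose from 134, 144 and 149 CPM to 222, 230 and 227 (0.67 ± 0.08, adjusted p = 4.04e-05). The translocase gene Rad54l rose 1.4-fold and the nuclease gene Eme1 1.47-fold. Rbl1, which encodes the pocket protein p107, was the only call among 21 D cyclin, CDK inhibitor and pocket protein genes: 13.9, 13.9 and 14.9 CPM against 25.7, 29.4 and 31.9, a 2.04-fold rise (adjusted p = 0.000183). With the block 5 of that list were higher and 1 lower.

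Immediate early genes fell: 9 of 34 tested were lower in G2 and none higher, with a median log2 change of -0.34 (15 lower and 1 higher with the block; 4 to 8 lower with 1 library left out, 4 without early G1 replicate 3 or G2 replicate 2 and 5 without early G1 replicate 2; 3 lower without the libraries numbered 3). Jun, a subunit of the AP-1 transcription factor, stood at 11.1, 10 and 11.8 CPM in early G1 and 6.26, 5.2 and 5.9 in G2 (-0.92 ± 0.13, adjusted p = 0.000387). Junb, another AP-1 subunit, fell from 81.4, 66.2 and 73.2 CPM to 55.1, 41.6 and 41.2 (-0.68 ± 0.11, adjusted p = 0.00111). Fos, their partner, fell from 6.7, 6.77 and 11 CPM to 2.9, 3.23 and 4.13 (-1.25 ± 0.24, adjusted p = 0.00553), its replicate 3 being the highest of each phase. Btg2, an antiproliferative gene that is also a p53 target, fell from 273, 258 and 253 CPM to 204, 176 and 156 (-0.55 ± 0.10, adjusted p = 0.00425). These 4 kept their calls with any 1 of the 6 libraries left out.

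The other 5 each lost the call in 2 to 5 of the 6 omissions. In the block fit of all libraries, edgeR's adjusted p was 0.000362 for Fosb, 0.000521 for Klf10, 0.00328 for Atf3 and 0.0101 for Nr4a2. Egr1, a zinc finger factor, read 3.7, 4.71 and 7.95 CPM in early G1 and 0.71, 1.44 and 1.88 in G2, with replicate 3 the highest of each phase (-2.03 ± 0.48, adjusted p = 0.0282, and 4.4e-07 with the block). Its call was lost without early G1 replicate 2, early G1 replicate 3, G2 replicate 1 or G2 replicate 2 (0.0547 to 0.134). Fosb read 1.97, 1.01 and 2.69 CPM against 0.549, 0.211 and 0.627 and was lost without early G1 replicate 3 or G2 replicate 2 (up to 0.0732). Klf10 (1.26-fold lower), lost without early G1 replicate 2, early G1 replicate 3 or G2 replicate 2 (up to 0.125), Atf3, lost without any library but early G1 replicate 1 (up to 0.0869), and Nr4a2, lost without any but G2 replicate 3 (up to 0.161), complete the set. Srf, whose protein drives many immediate early promoters, was at 53.3, 61.3 and 62.8 CPM in early G1 and 69, 80.5 and 94.6 in G2, higher without overlap at an adjusted p of 0.0583 and of 0.000109 with the block. Myc read 20.6, 27.7 and 23.7 CPM against 13.9, 17.6 and 15, lower without overlap at an adjusted p of 0.257 and of 0.00174 with the block.

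Cholesterol synthesis genes were lower in 6 of 22 cases and higher in none (median log2 change -0.16, 18 of 22 fitted changes below 0). Insig1, which retains the SREBP regulator complex in the endoplasmic reticulum and is itself an SREBP target, fell from 81.2, 84.9 and 93.1 CPM to 54.4, 56.9 and 56 (-0.63 ± 0.08, adjusted p = 0.000161). Sc5d fell 1.5-fold and Cyp51 1.38-fold, both enzymes of the later steps, Stard4, a sterol carrier, 1.45-fold, and Hsd17b7 1.34-fold. Insig1 and Sc5d kept their calls with any 1 library left out. Without early G1 replicate 3 the adjusted p was 0.0796 for Cyp51, 0.0807 for Stard4 and 0.162 for Hsd17b7. Cyp51 was also lost without G2 replicate 2, Stard4 without G2 replicate 1 or 2, and Hsd17b7 with any library left out (up to 0.203). With 1 library left out, 2 to 5 members were called, 2 without early G1 replicate 3 and 3 without G2 replicate 1 or 2, and 4 without all libraries numbered 3.

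Of 24 p53 target genes, 3 were lower and none higher (6 lower and 1 higher with the block): Btg2, Pmaip1, the BH3-only protein Noxa (39.2, 33.6 and 37.3 CPM to 22, 21.9 and 26.1; -0.65 ± 0.13, adjusted p = 0.00584) and Rrm2b, a ribonucleotide reductase subunit (7.15, 6.15 and 6.42 to 3.81, 2.88 and 3.84; -0.91 ± 0.16, adjusted p = 0.00355). The median of the list was -0.03, near that of all genes. In the stress response list of 22 genes (5 higher and 2 lower with the block), Xbp1, a transcription factor of the unfolded protein response, rose 1.34-fold (39.5, 37.3 and 38.5 CPM to 53.9, 55.5 and 45.6; adjusted p = 0.00584). Ppp1r15a, the phosphatase subunit that ends the integrated stress response, fell 1.49-fold (adjusted p = 0.0241), a call lost in every omission but that of early G1 replicate 1 (up to 0.102). Dnajb9 was lower at an adjusted p of 0.0498, lost in every omission but that of G2 replicate 3 (up to 0.221). Slc2a1, the glucose transporter Glut1, was the only call among 24 glycolysis and hypoxia genes (7 lower with the block): 246, 234 and 256 CPM against 182, 185 and 202 (-0.37 ± 0.08, adjusted p = 0.0125), lost without early G1 replicate 3, G2 replicate 1 or G2 replicate 2 (up to 0.0697).

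Of the core factor genes Nanog, Sox2, Pou5f1 and Esrrb, Nanog passed the test. Nanog, a core factor of the naive state, stood at 284, 278 and 249 CPM in early G1 and at 220, 224 and 198 in G2, 1.26-fold lower without overlap (-0.34 ± 0.08, adjusted p = 0.0202, and 0.000244 with the block). The call was lost without early G1 replicate 1 or 2 or G2 replicate 1 or 3 (0.0594 to 0.0897). Sox2 read 294, 343 and 395 CPM against 277, 322 and 368, overlapping (-0.09 ± 0.14, adjusted p = 0.783, and 0.332 with the block), and was lower in G2 in each of the 3 same-numbered pairs. Pou5f1, which encodes Oct4, read 909, 867 and 682 CPM against 1021, 933 and 749 (0.14 ± 0.13, adjusted p = 0.641, and 0.183 with the block), higher in each pair. A fit of only these 6 libraries with the block called both (adjusted p = 0.0306 for Sox2 and 0.00227 for Pou5f1); in it 16.3% of the genes tested were called higher and 11.3% lower. Esrrb read 314, 355 and 334 CPM against 305, 348 and 359 (0.01 ± 0.12, adjusted p = 0.974). Zfp42, the naive marker Rex1, was at 418, 400 and 406 CPM against 468, 463 and 471, higher without overlap and uncalled (adjusted p = 0.254, and 0.0212 with the block). In all, 1 of 21 naive genes was lower (3 higher and 2 lower with the block), and 1 of 19 general pluripotency genes higher (7 higher and 2 lower with the block). That gene was Foxd3, a repressor needed in ES cells (15.5, 19.5 and 19 CPM to 24.9, 26.5 and 30.5; adjusted p = 0.0448), whose call was lost when any 1 of the 6 libraries was left out (0.0674 to 0.166).

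Several regulator genes fell. Id4 and Id1, inhibitors of bHLH factors and targets of BMP signalling, were 2.04-fold and 1.29-fold lower, from early G1 means of 2.37 and 52.6 CPM, and were the 2 calls among 15 BMP and Nodal response genes (6 lower and 2 higher with the block). The Id1 call was lost without early G1 replicate 1 or 2 or G2 replicate 2 or 3, and the Id4 call without early G1 replicate 2 or 3 or G2 replicate 1 or 2 (up to 0.126 and 0.0862). Cbx8, a chromodomain subunit of a Polycomb complex, was at no more than 2.06 CPM in any of the 6 libraries and lower in G2 (adjusted p = 0.0286), a call lost with any library left out but early G1 replicate 3 (up to 0.112). Of 28 Polycomb and DNA methylation genes, 1 was higher and 2 were lower (4 higher and 3 lower with the block). Of 17 formative genes (3 higher and 3 lower with the block), Foxd3 was higher, and Zic2, a zinc finger factor, and Cd24a, a surface glycoprotein, were lower. Cd24a read 7.06, 6.87 and 4.82 CPM in early G1 and 3.39, 2.42 and 2.54 in G2 (-1.16 ± 0.20, adjusted p = 0.00193) and kept its call in every omission; Zic2 (adjusted p = 0.0286) was lost in every omission but that of early G1 replicate 3 (up to 0.102).

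Above a log2 CPM of 1 on average, the largest falls were led, after Egr1, by Camk2n1, an inhibitor of the calcium-dependent kinase CaMKII: 4.61, 4.15 and 5.02 CPM in early G1 against 1.52, 1.3 and 1.25 in G2 (-1.75 ± 0.19, adjusted p = 1.51e-05). Chrm4 and Chrnb2 encode acetylcholine receptors, a muscarinic receptor and a nicotinic subunit. Chrm4 fell 2.92-fold (2.18, 3.11 and 2.89 CPM to 0.678, 1.16 and 0.959) and Chrnb2 2.73-fold. Mttp, a lipid transfer protein, fell from 7.39, 7.29 and 9.74 CPM to 3.65, 3.97 and 3.1 (-1.19 ± 0.16, adjusted p = 0.000302). Camk2n1, Chrm4, Chrnb2, Mttp and Fos kept their calls with any library left out. Gcnt4, a glycosyltransferase, Col11a2, a collagen chain, Efnb3, an ephrin, Sema4c, a semaphorin, and Cacna1h, a calcium channel subunit, fell 2.19-fold to 3-fold at adjusted p-values of 0.017 to 0.0462. Without early G1 replicate 3 the adjusted p was 0.167 for Gcnt4, 0.182 for Col11a2, 0.0935 for Efnb3 and 0.271 for Cacna1h, and Sema4c reached 0.0705 without G2 replicate 3. Gcnt4 and Cacna1h lost the call in 5 of the 6 omissions (Gcnt4 in all but early G1 replicate 1, Cacna1h in all but early G1 replicate 2), and Col11a2 and Efnb3 in those of early G1 replicates 2 and 3 and G2 replicates 1 and 2. Sema4c lost it in those of early G1 replicates 1 and 2 and G2 replicates 1 and 3.

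Groups with 0 calls in edgeR's test were the 40 cytosolic ribosomal protein genes, 28 ribosome biogenesis genes, 15 genes of the mitochondrial genome, 15 heat shock genes, 24 RNA polymerase II and pause release genes, 19 lineage genes and 6 2-cell-like genes. With the replicate block, 3 ribosomal protein, 8 ribosome biogenesis and 1 heat shock gene were higher, 2 RNA polymerase II genes were higher and 1 lower, 1 lineage gene was higher and 6 lower, and 1 2-cell-like gene was lower, with 0 calls among the mitochondrial genes. Over all tested genes, that block fit called 7.79% higher and 6.95% lower. The fit of only the 6 libraries with the block called all 40 ribosomal protein, 19 ribosome biogenesis and 7 heat shock genes higher. It called 16.3% of all its tested genes higher. All 40 ribosomal protein genes had a fitted change above 0, with a median of 0.15 on the log2 scale, and the median stayed above 0 in the 19 other settings tried (0.0825 to 0.233). Of the 8 fibroblast genes tested, 1 was lower in G2, the growth factor receptor gene Pdgfrb (5.06, 4.77 and 6.08 CPM to 2.9, 3.69 and 3.47; adjusted p = 0.0462), and 0 were called with any 1 library left out. The 2-cell-like genes all had a fitted change below 0 (median -0.37).

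Late G1 lies between the compared phases in time, and its levels split the genes that were higher in G2. In 178 of the 304 the untreated late G1 mean lay between those of early G1 and G2, in 78 below both and in 48 above both. Of the 75 mitotic genes higher in G2, 38 had a late G1 mean below that of early G1, in 20 of these without overlap between the late and early G1 libraries, while in 26 all late G1 libraries lay above all early G1 libraries. Over all tested genes, 13.2% lay lower in late than in early G1 without overlap and 10.7% higher, and of the 304 it was 40 lower and 156 higher. Top2a (208, 460 and 1178 CPM on average in early G1, late G1 and G2), Kpna2 (101, 221 and 615), Prc1 (45, 85.2 and 248) and Aurkb (10.7, 32.3 and 74.5) were lowest in early G1. Fbxo5 was already at its G2 level in late G1 (20.9, 68.3 and 64). Aurka (105, 50.6 and 194 CPM), Nusap1 (48.8, 21.6 and 106), Aspm (250, 135 and 398), Arl6ip1 (186, 118 and 407) and Cenpe (105, 62.5 and 159) were instead lowest in late G1. The spindle list was weighted to the latter: 20 of its 27 called genes were lower on average in late G1 than in early G1, and 13 of its 16 uncalled genes. For Plk1 (68.9, 36 and 102 CPM), Cdc20 (310, 200 and 337), Tpx2 (244, 143 and 306) and Cenpa (74.3, 33.3 and 89.8), all uncalled between early G1 and G2, the late G1 mean was the lowest of the 3. The condensin list was not of that kind, with 1 of 12 called genes lower in late G1 than in early G1. The early G1, late G1 and G2 libraries are the same in all these statements, which are given as levels with no test.

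Among the 272 genes lower in G2, the late G1 mean lay between in 188, below both in 55 and above both in 29. All 9 called immediate early genes had a lower late G1 than early G1 mean, 7 of them without overlap, as Jun (11, 5.7 and 5.79 CPM) shows. Of all 272 lower genes, which were chosen for high values in the same early G1 libraries, 162 lay lower in late G1 without overlap. In contrast, 5 of the 6 called cholesterol genes had their highest mean in late G1, for example Insig1 (86.4, 97.4 and 55.8) and Stard4 (44.5, 49 and 30.6), as did Ccne2 (25, 39.5 and 12.5). In only 1 of the 6 cholesterol genes did all late G1 libraries lie above all those of early G1 and G2. Nanog was at 270, 207 and 214 CPM. Of the histone genes, 57 of the 59 uncalled and all 3 called had their highest mean in late G1, such as Hist1h4a (337, 978 and 605 CPM).

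**Figure D4:**
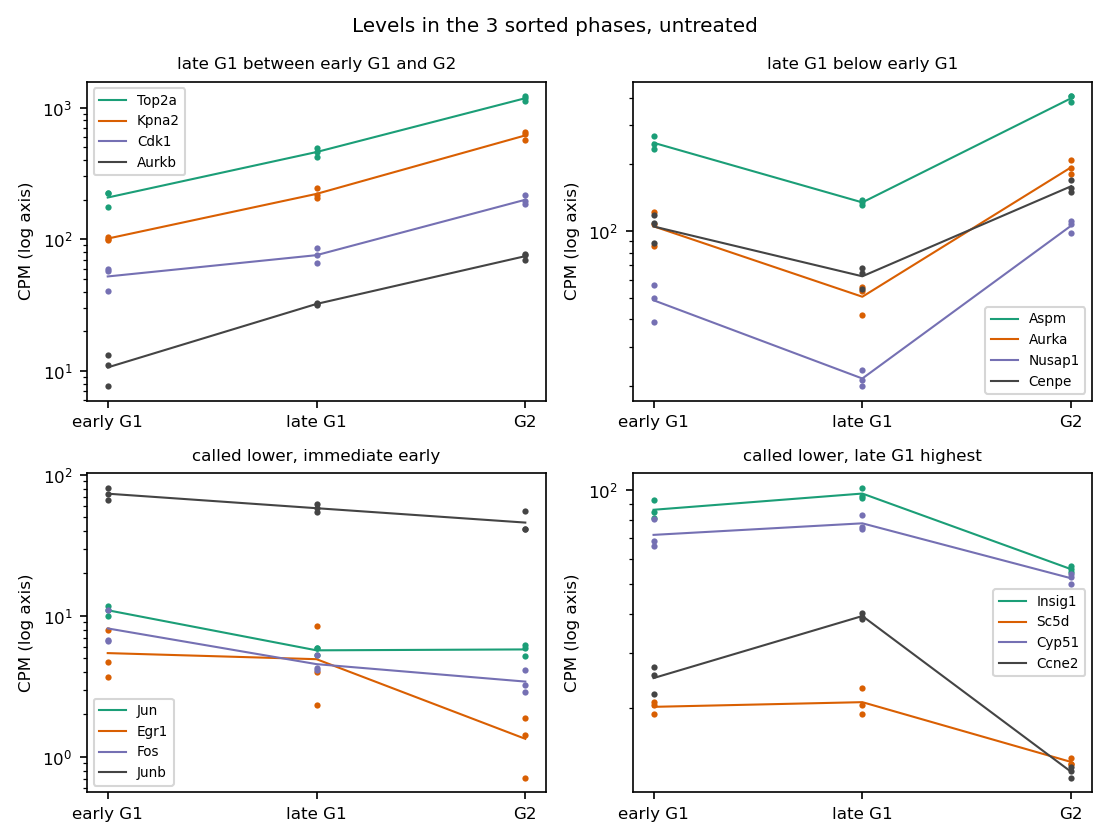
CPM (log axis) in the 3 sorted phases without auxin for 16 genes; points are libraries, lines join the means of 3. By their means, Top2a, Kpna2, Cdk1 and Aurkb rise at both steps, Aspm, Aurka, Nusap1 and Cenpe dip in late G1, the immediate early genes are highest in early G1, and Insig1, Sc5d, Cyp51 and Ccne2 are highest in late G1 and lowest in G2.

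The same comparison in the auxin-treated libraries, which share no library with the untreated one, called 622 genes (3.88%), 335 higher in G2 (2.09%) and 287 lower (1.79%); with the block it called 2431 (15.2%), 8.03% of genes higher and 7.16% lower, and 23% of tested genes did not overlap between the auxin groups. All 304 genes higher in untreated G2 had a change above 0 with auxin, and 227 of them were called: 74.67% of the untreated list and 67.76% of the auxin list. Of the 272 lower genes, 271 had a change below 0 with auxin and 129 were called, 47.43% of the untreated and 44.95% of the auxin list. Over all tested genes, 78.34% had the same sign in both. Libraries numbered 2 had the highest mitochondrial share of counts in each phase with and without auxin, for example 1.11% untreated and 1.106% with auxin in early G1. Same-numbered libraries may thus share conditions across the 2 comparisons, and the part of this in the shared signs was not tested. Across the 11471 genes whose log2 CPM averaged 1 or more, the log2 changes correlated at r = 0.81, and across all 16011 at r = 0.549, a description across genes that are not independent and that share each library's depth. Median changes were 0.50 with auxin against 0.52 without for the higher genes, and -0.50 against -0.67 for the lower genes, which were chosen on the untreated values.

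Leading genes had like values in both comparisons. The log2 change with auxin was 2.67 for Aurkb, 2.58 for Kpna2, 2.56 for Top2a, 1.96 for Cdk1, -0.96 for Jun, -0.70 for Junb and -0.71 for Insig1, and Nanog was lower by a log2 change of -0.52 (adjusted p = 0.000623). Of the weak genes, Gcnt4 (-0.42, adjusted p = 0.584) and Cacna1h (-0.18, adjusted p = 0.796) were not called with auxin. The test of the difference between the 2 comparisons called 0 genes in edgeR and 0 with the block, with a smallest adjusted p of 1 in the fit without it. In that fit 222 genes (1.39%) had an unadjusted p under 0.05, and DESeq2 called 0 with 213 under an unadjusted 0.05. The SE of the difference was larger than that of the untreated change, for Aurkb 0.2194 against 0.1632. Recovery of true differences was not simulated, so 0 calls do not show that the changes were equal.

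**Figure D5:**
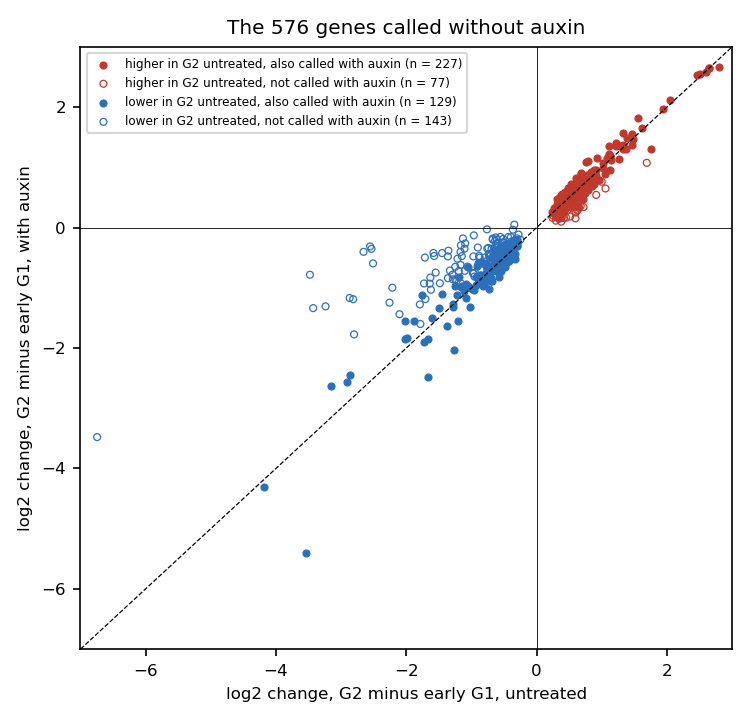
Log2 change from early G1 to G2 with auxin (vertical axis) against that without (horizontal axis) for the 576 genes called without auxin, filled where also called with auxin; the dashed line marks equal changes. The 227 filled red points lie along the line, and the open blue points, 143 genes, include those with large untreated falls and smaller changes with auxin.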

How the data were processed

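RNA was measured in 18 libraries of the Sox2-Aid line, 3 in each of 6 groups, grouped by their titles; the other samples of the series were not analysed here. The authors deposited expected counts per gene, rounded to whole numbers as the values show, and TPM; per the submitters' processing notes STAR, RSEM and the mm9 assembly were used, with no versions or roles given. Whether counting used strand is not given in the sources used here, so genes that overlap cannot be told apart.

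Counts were filtered by group with filterByExpr, scaled by TMM and tested with edgeR 4.0.16 (quasi-likelihood, robust) on group means over all 18 libraries (12 residual df, common BCV 0.1418). Calls required an adjusted p (Benjamini-Hochberg) under 0.05. CPM use TMM-scaled library sizes, and the SE is the log2 change divided by the square root of F. Alternatives used DESeq2 1.42.0, limma 3.58.1 and other scalings, filters and library sets. The members and gene lists were chosen with earlier results of these data known. The genes named by size are the 12 largest changes each way among calls without overlap between the groups, whose mean log2 CPM reaches 1, leaving out unnamed gene models and shared symbols (171 entries tested); the list members named are mostly the 4 with the smallest p, others after their values were seen.

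The replicate numbers are in the titles, with no statement of what they share. Same-numbered early G1 and G2 libraries deviated together from their group means (r = 0.336, 0.2409 and 0.455 without auxin, and 0.2015, 0.2675 and 0.3119 with it). The numbers were therefore taken as pairs in the fits with the replicate block. The main fit and the omissions of libraries did not use the pairing. Replicates differed beyond counting error (chi-square per degree of freedom 15.99 to 59.17). Tested on simulated counts of the 16011 genes, the untreated comparison recovered 42% of genes changed 1.5-fold and 59% of those changed 2-fold, with 5 unchanged genes called, and 0 were called when nothing changed. The simulated libraries were drawn independently, with no deviation shared by replicate number. These rates therefore hold for that setting and not for libraries that deviate together. Some called genes are not reported here.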

Additional observations from a re-analysis of the deposited data

Results flagged for a closer look

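In 1 called gene, the untreated and auxin comparisons pointed opposite ways. Syt13, a synaptotagmin gene chosen after its values were seen, was at 50.4, 48.5 and 49.8 CPM in untreated early G1 and at 41.2, 36.9 and 39.2 in untreated G2 (log2 change -0.34 ± 0.08, adjusted p = 0.0169 in edgeR), while with auxin the change was 0.05. The difference of the 2 changes was 0.39 on the log2 scale, and its test did not pass (adjusted p = 1). The untreated call was lost without early G1 replicate 1 or 3 or G2 replicate 2 (adjusted p up to 0.107). With 3 libraries in a group, no single library was tested as an outlier.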

How the results depend on the processing

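The number of calls moved with the setting. For the untreated comparison (576 genes), DESeq2 called 940, limma on log2(TPM + 1) 86 and on log2(TPM + 0.1) 66, a fit of only the 6 libraries compared 161, and a fit without the libraries numbered 3 called 226. Settings added after seeing the data gave 254 (only the 9 untreated libraries) and 4155 (only the 6 libraries, with the replicate block). Leaving out 1 library gave 241 to 398. The replicate block on all 18 libraries gave 2360. For the auxin comparison (622 genes) the same settings gave 938 with DESeq2, 63 and 61 on the TPM scales, 330 with only its 6 libraries, 290 without the libraries numbered 3, 282 to 492 with 1 library left out and 2431 with the replicate block. The share of higher calls in the untreated comparison moved from 52.78% to 70.19% with only its 6 libraries, 65.53% and 65.15% without G2 replicate 1 or 2, 64.6% without the libraries numbered 3 and 64.17% with the 9 untreated libraries; with auxin it moved from 53.86% to 69.84% and 70.49% on the TPM scales. The cause of these shifts was not tested. The test of the difference between the comparisons called 0 genes in every setting. Of 89 called genes followed through 19 settings, 31 kept their call in all of them and 52 in each omission of 1 library. The 12 named genes with the largest rise kept theirs in all 19.

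Changes near 0 turned sign. Esrrb was at -0.0008 under the stricter filter, -0.0126 and -0.0129 on the TPM scales with pseudocounts 1 and 0.1, and -0.0375 without the libraries numbered 3. With 1 library left out, Esrrb ranged from -0.0310 to 0.0879, Sox2 from -0.1946 to 0.0187, Ccne1 from -0.2183 to 0.0490 and Pcna from -0.0022 to 0.1356. In the smallest of the 6 libraries 1 CPM is 26 counts, with a counting error of 19.6% against a common spread between replicates (BCV) of 14.18%; 41 of the 272 lower genes averaged under 1 CPM.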
